A study of Rattus norvegicus with 48 samples.

Results

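Livers of rats fed 500 ppm phenobarbital (PB) for 14 days were compared with those of time-matched controls, 3 animals against 3, which are 6 of the 48 animals with an array in the study. All were male F344 rats, 9 weeks old at the start, kept on CT1 diet and water as desired. The treated animals (numbers 56, 58 and 60) received the sodium salt of PB mixed into that diet, and the controls (numbers 16, 18 and 20) received 0 ppm. RNA from the left lateral lobe was hybridised to 1-colour Affymetrix rat genome arrays, 1 array for each animal, and each value is a MAS 5.0 signal, the brightness of a probeset (a set of probes for 1 transcript) after every array was scaled to a mean of 500. The animals were chosen by their number and the study design, and for these 6 the deposited group labels name the same groups. The question put to the data was which liver transcripts stood higher or lower after 14 days of a dose in the middle of the series of 50, 500 and 1000 ppm.

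PB is the standard example of an inducer of drug metabolism. In hepatocytes it leads the constitutive androstane receptor CAR (Nr1i3) into the nucleus, where CAR, and the related pregnane X receptor PXR (Nr1i2), switch on genes that oxidise, conjugate and export foreign compounds. The same exposure enlarges the rodent liver, spreads smooth endoplasmic reticulum through the cytoplasm and, over long treatment, promotes tumours without damaging DNA.

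The 6 arrays listed 15059 to 16101 signals, with median signals from 421 to 470, and pairs of them correlated at 0.976 to 0.988. Whole liver was sampled, so fewer cells of a type and less RNA per cell cannot be told apart. Albumin and the other 10 hepatocyte markers tested were listed in both groups and lay below 0 (median log2 fold change -0.16, and -0.05 after quantile normalization) with 0 called, and 7 of 10 markers of pancreas, fat and muscle were listed on none of the 6 arrays. The array runs, as the array names date them, cannot be told apart from the groups: the controls lay in runs 5 and 6, the treated animals in runs 2 and 3, and no run held both, so no within-run value exists. A single limma fit covered the 48 arrays with a mean for each of the 16 groups, so the spread behind each test is pooled, and the Benjamini-Hochberg adjustment ran over all probesets tested in a comparison. Errors after a log2 fold change are standard errors of this fit. The number of arrays limits the precision, and the labels do not state litters or cages.

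Of 14390 probesets tested, 254 (1.77%) changed at an adjusted p below 0.05, with 159 (1.10%) higher and 95 (0.660%) lower at 500 ppm. In all 254 the treated and control signals did not overlap, as was so for 2698 of the 12812 tested probesets listed on all 6 arrays (21.1%). The changes were mostly modest: 144 reached 1.5-fold (86 higher, 58 lower) and 51 reached 2-fold (33 higher, 18 lower). The median log2 fold change was 0.61 over the higher and -0.73 over the lower probesets, against -0.0069 over all tested. With 1 probeset for each gene, 124 of 8649 genes (1.43%) were higher and 44 (0.509%) were lower, and these are the shares beside which the gene groups stand.

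When each array was left out in turn, 65 of the 254 were called in all 6 of these reduced fits (52 higher, 13 lower). With the run as a fixed block, 253 of 254 kept their sign and the median ratio of the fold changes was 0.973 on the log2 scale, while the median standard error went from 0.137 to 0.278 and 13 probesets (0.0904%) were called, 11 of them among the 254. That fit draws the run effects from animals of other doses and days. The probesets it called of named genes were those of Cyp2b2 and Cyp2b1, Ugt2b1, Ces2c, Ephx1, Aldh1a1, Ddc, App (3 probesets), Cyp3a23-3a1, Mmgt1 and Smarcal1, the last of which did not pass without the block (adjusted p = 0.0722).

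**Figure D1:**
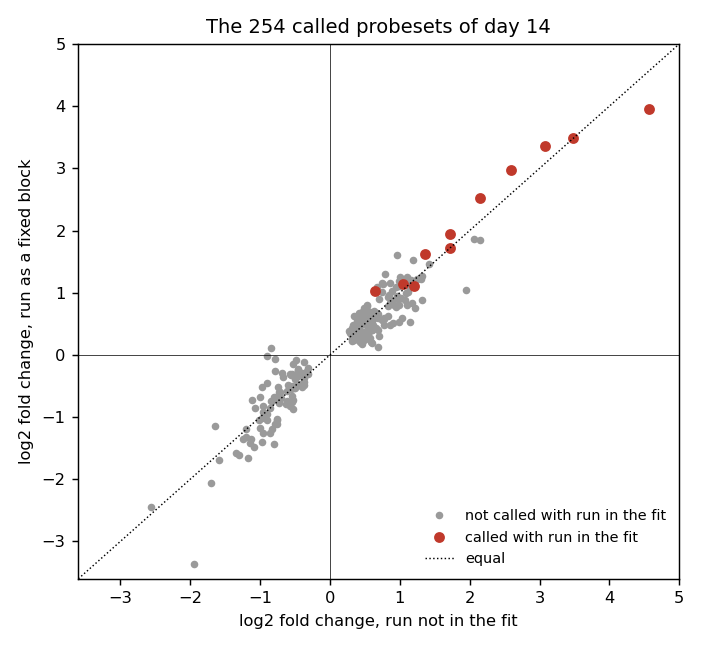
Each point is 1 of the 254 called probesets, with the log2 fold change of 500 ppm over control on day 14 on the x axis and the same value from the fit with the array run as a fixed block on the y axis. The points lie along the line of equal values (median ratio 0.973), and 11 of them were also called with the block.

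Cytochromes P450 were led by the probeset shared by Cyp2b2 and Cyp2b1, the classical PB-inducible monooxygenases, which cannot be assigned to either gene alone. Its signals were 4702, 4137 and 5824 in controls 16, 18 and 20 and 39296, 42457 and 40466 in treated animals 56, 58 and 60. Every treated animal stood far above every control, and the 3 treated signals differed little among themselves. Whether signals this bright still follow the amount of RNA in proportion was not tested. The log2 fold change was 3.07 ± 0.14, an 8.42-fold rise (adjusted p = 3.5e-18). Cyp2b3, a relative that has its own probeset, read 27045 to 33633 in controls and 26978 to 30430 in treated animals, so the groups overlapped (log2 fold change -0.06 ± 0.11, adjusted p = 0.89). The promoters of the 2 inducible genes are printed to show where they differ, and the probeset reads transcripts, not promoters. The windows come from RefSeq (GRCr8), run from -80 to -1 of the annotated start for Cyp2b1 and from -97 to -18 for Cyp2b2, and hold 2 differing bases, in capitals. Over 233 aligned bases the promoters were 96.6% equal.
Cyp2b1, chr1:90646039-90646118, plus strand: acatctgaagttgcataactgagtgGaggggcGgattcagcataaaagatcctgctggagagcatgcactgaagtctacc
Cyp2b2, chr1:90722184-90722263, plus strand: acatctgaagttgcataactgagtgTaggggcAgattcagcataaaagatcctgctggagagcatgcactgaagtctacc

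The Cyp3a enzymes, which oxidise steroids and many drugs, did not move together. Cyp3a23-3a1 read 20977, 25063 and 28642 in controls and 39792, 36218 and 39939 in treated animals, a rise of 0.64 ± 0.11 on the log2 scale (1.56-fold, adjusted p = 8.3e-04). Cyp3a2 read 20953, 15581 and 26969 against 32837, 33730 and 32676, with even treated signals and uneven controls (0.68 ± 0.15, adjusted p = 0.0119), and without control 18, the lowest, its adjusted p was 0.14. Cyp3a18 went the other way, from 19035, 20404 and 22698 to 15138, 15478 and 16542 (-0.40 ± 0.10, adjusted p = 0.0255), and Cyp3a9 had a value of 0.32 ± 0.22 that did not pass (adjusted p = 0.561). The Cyp3a18 call was lost without control 18 or 20 or treated animal 56 or 58, with adjusted p up to 0.169. The promoters of these 4 genes are shown because their values differed in direction. Positions run from -170 to -111 of the RefSeq start (GRCr8), and capitals mark AGTTCA on either strand.
Cyp3a23-3a1, chr12:14398914-14398973, minus strand: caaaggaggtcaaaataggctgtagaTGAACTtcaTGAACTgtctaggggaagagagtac
Cyp3a2, chr12:14343968-14344027, minus strand: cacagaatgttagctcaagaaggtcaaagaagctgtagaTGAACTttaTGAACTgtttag
Cyp3a18, chr12:13994142-13994201, plus strand: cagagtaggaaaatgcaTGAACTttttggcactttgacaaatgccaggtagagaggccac
Cyp3a9, chr12:21960271-21960330, minus strand: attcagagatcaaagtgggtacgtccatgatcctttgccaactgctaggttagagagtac

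The windows of Cyp3a23-3a1 and Cyp3a2 hold 2 copies of AGTTCA in the same orientation with 3 bases between them, searched on both strands. AGTTCA is a core to which PXR and CAR dimers are known to bind. Within 250 bases before the start, 2 of 33469 RefSeq promoters (0.00598%) held that pair, those of Cyp3a2 and Cyp3a23-3a1, while 12.2% held AGTTCA at least once. The pair was searched only in the exact form that these 2 windows hold. Its share therefore follows from that choice and does not cover other forms of the site. A match is a description of the letters and no measure of binding. Cyp1a2, which oxidises caffeine and aromatic amines, fell from 18891, 18474 and 21922 to 11308, 11892 and 12551 (-0.73 ± 0.10, 1.66-fold lower, adjusted p = 5.1e-06), and the call held in all 6 reduced fits. Of 27 members of P450 families 1 to 3 tested among 42 listed, 2 were higher (Cyp3a2 and Cyp3a23-3a1) and 2 lower (Cyp1a2 and Cyp3a18), with a median of 0.03. Cyp2c12, known as a female-predominant steroid hydroxylase in rats, read 1938, 1583 and 1657 against 800, 938 and 658 but did not pass (-1.12 ± 0.38, adjusted p = 0.137), nor did Cyp2j3 (-0.33 ± 0.10).

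**Figure D2:**
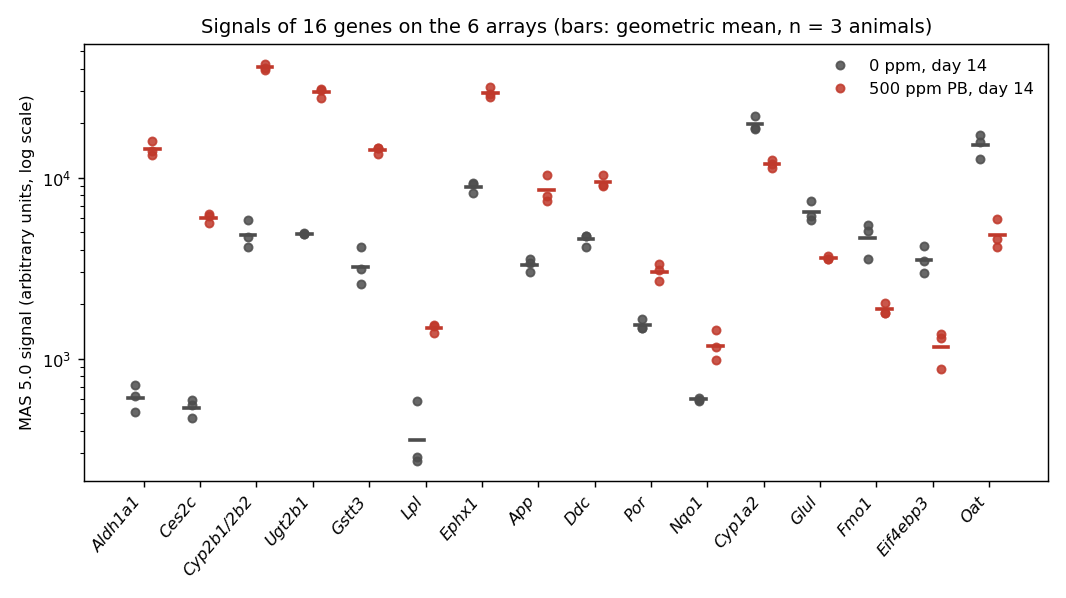
MAS 5.0 signals on a log axis for 16 genes in the 3 controls and the 3 animals given 500 ppm PB for 14 days, 1 point for each array, with bars at the geometric mean of a group. The groups do not overlap in any of the 16, and those of the Cyp2b2 and Cyp2b1 probeset lie at 4137 to 5824 and 39296 to 42457.

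P450 enzymes need electrons and heme. Por, the reductase that passes electrons from NADPH to every microsomal P450, rose from 1482, 1468 and 1663 to 2670, 3332 and 3103 (0.98 ± 0.17, 1.97-fold, adjusted p = 4.5e-04). Blvrb, a flavin and biliverdin reductase, rose less (0.45 ± 0.11, adjusted p = 0.0262), a call that stood in 1 of the 6 reduced fits, the one without control 18, and reached 0.103 without control 20. Alas1, which starts heme synthesis and is a known PB target, read 7712, 8468 and 8268 in controls and 11565, 11042 and 11366 in treated animals. Its groups did not overlap, but it did not pass against the spread of the 48 arrays (0.48 ± 0.31, adjusted p = 0.529). Fech, which inserts iron into heme, was at 0.36 ± 0.10 (adjusted p = 0.0622) and Hmox1, which breaks heme down, at -0.57 ± 0.19 (adjusted p = 0.117). Of 15 members of this group tested, 2 were higher and none lower (median 0.09).

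Aldh1a1, a cytosolic dehydrogenase that oxidises retinal to retinoic acid, had the highest fold change of the genes named here. Its signals were 508, 620 and 712 in controls and 13388, 15855 and 14014 in treated animals, with no signal of either group between 712 and 13388. The rise was 4.57 ± 0.34 on the log2 scale, 23.7-fold (adjusted p = 5.5e-12). With the run as a block it was 3.95. Akr7a3, an aldo-keto reductase that detoxifies aflatoxin dialdehyde, went from 2170, 1754 and 2011 to 4044, 6024 and 4884 (1.32 ± 0.28, adjusted p = 0.00642), and its adjusted p was 0.0536 without treated animal 58, its highest. Nqo1, a quinone reductase, rose from 586, 609 and 591 to 1432, 981 and 1160 (0.98 ± 0.19, adjusted p = 0.00255). Controls of Nqo1 were nearly equal, and the treated animals were spread.

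In the same group of 30 tested oxidoreductases, 5 were higher and 1 lower (median 0.09). Aox1, the molybdenum-containing aldehyde oxidase, and Aldh1l1, a folate dehydrogenase, rose by 0.42 ± 0.10 and 0.49 ± 0.13 (adjusted p = 0.0274 and 0.0492), but Aox1 was called only without treated animal 56 and Aldh1l1 in none of the 6 reduced fits, with adjusted p up to 0.104 and 0.173. The single lower member was Fmo1, a flavin monooxygenase that oxidises nitrogen and sulfur atoms. It fell from 5059, 3554 and 5438 to 1795, 2025 and 1797 (-1.30 ± 0.23, 2.46-fold lower, adjusted p = 9.1e-04), with 3 treated animals close together. Its relative Fmo5 did not pass (-0.43 ± 0.39, adjusted p = 0.693). Cyp4a8, a fatty acid hydroxylase, was higher at 1.31 ± 0.34 (adjusted p = 0.0389), a call lost whichever of the 6 arrays was left out (adjusted p 0.0674 to 0.117).

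Among hydrolases, Ces2c, a carboxylesterase that cleaves ester drugs, read 470, 558 and 589 in controls and 5577, 6159 and 6285 in treated animals. It rose 11.2-fold (3.48 ± 0.20, adjusted p = 5.5e-15), with narrow spread on both sides. Ephx1, the microsomal epoxide hydrolase, rose from 8202, 9171 and 9316 to 27699, 31497 and 29029 (1.73 ± 0.11, 3.31-fold, adjusted p = 1.6e-14). Of 10 hydrolases tested these 2 were higher and none lower (median 0.05), and 10 further members of the list have no probeset of their own.

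Glucuronidation joins a sugar acid to a drug or hormone. Ugt2b1, a UDP-glucuronosyltransferase of the liver, had nearly equal controls at 4848, 4926 and 4904 and treated signals of 27455, 30533 and 30998. Its rise was 2.60 ± 0.15 (6.05-fold, adjusted p = 5.5e-15). Ugt2b10 rose by 0.38 ± 0.10 (adjusted p = 0.0268), a call that remained only without treated animal 58 and reached 0.112 without animal 56. The Ugt1a genes share their last exons, and the 2 called probesets that read them together rose by 0.46 ± 0.11 and 0.39 ± 0.11 (adjusted p = 0.0241 and 0.0486). These probesets belong to no Ugt1a gene alone, and each was called in 1 of the 6 reduced fits. Ugp2, which makes UDP-glucose, was at -0.34 ± 0.15 (adjusted p = 0.292).

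Glutathione S-transferases, which attach glutathione to reactive electrophiles, had 6 of 17 tested members higher and none lower, with a median of 0.28. Gstt3, of the theta class, rose from 3116, 2567 and 4137 to 14600, 13555 and 14641 (2.15 ± 0.32, 4.44-fold, adjusted p = 4.7e-05). Gstm4 rose from 1100, 1124 and 1046 to 1894, 2106 and 2024 (0.88 ± 0.13, adjusted p = 4.0e-05). Gsta4, which conjugates the lipid aldehyde hydroxynonenal, rose by 0.58 ± 0.10, Mgst2, a membrane-bound member, by 0.47 ± 0.08, and both calls stood in all 6 reduced fits. The probeset that Gsta5 and Gsta2 share was higher as well, at 21217, 19948 and 21557 against 36697, 40265 and 36977 (0.86 ± 0.12, adjusted p = 2.7e-05).

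Gstm1 and Gstt1 rose by 0.52 ± 0.11 and 0.57 ± 0.16 (adjusted p = 0.00726 and 0.0466). Gstm1 missed the threshold without control 16 (0.0521) or treated animal 58 (0.0536), and Gstt1 missed it without any of the 6, up to 0.188. Gstk1 (0.35 ± 0.10, adjusted p = 0.0509) and Gsta1 (0.38 ± 0.12, adjusted p = 0.107) had higher signals in every treated animal but did not pass, nor did Gstm7 (0.16 ± 0.12). Members of this family are close in sequence, so cross-hybridisation among them cannot be told apart from expression. Gstm3 and Gsta3 could not be tested, because neither was listed on any control array. In treated animals Gstm3 read 1989, 2002 and 1508, and Gsta3 read 697, 487 and 657. Gsta3 was 2.84 ± 0.46 higher at 500 than at 50 ppm on day 14 (adjusted p = 0.0017). That value rests on 2 listed signals at 50 ppm, 100.5 in animal 38 and 71.4 in animal 40. The deposited label of the array of animal 40 gives another group.

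Sulfotransferases and methyltransferases leaned the other way, with 0 of 17 tested members higher, 2 lower and a median of -0.17. Papss2, which makes the activated sulfate that sulfotransferases use, fell by 0.52 ± 0.12 on the log2 scale (adjusted p = 0.0132). That call was lost without control 16 or 20 or treated animal 58 or 60 (up to 0.107), whereas another probeset of Papss2 fell by 0.73 ± 0.15 and was called in all 6 reduced fits. Gnmt, the glycine methyltransferase that uses up methyl groups in liver, fell from 22829, 19342 and 26287 to 15879, 14052 and 17112 (-0.53 ± 0.13, adjusted p = 0.0231), a call lost without either control 16 or 20 or treated animal 56 or 58 (up to 0.177), and its value with the run as a block was -0.15. Sult2a6, a bile acid and steroid sulfotransferase, read 441, 606 and 551 against 849, 1272 and 1266 without passing (1.07 ± 0.36, adjusted p = 0.118), as did Inmt (0.71 ± 0.35) and Nat1 (-0.45 ± 0.19).

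No tested transporter of drugs or bile acids (15 of 24 in the list) and no tested gene of bile acid synthesis (13 of 15) passed. Of 15 transporters tested the median was -0.09, and the largest value was that of Abcb1a, a drug efflux pump (0.59 ± 0.34, adjusted p = 0.465). Slco1a4, an uptake carrier known to be induced through PXR in rats, was at 0.39 ± 0.13 and the bile salt export pump Abcb11 at 0.35 ± 0.11, both with non-overlapping groups (adjusted p = 0.117 and 0.0982). Of 13 bile acid genes the rate-limiting enzyme Cyp7a1 had overlapping groups (-0.59 ± 0.55), and Cyp8b1, which makes cholic acid, was lower in every treated animal without passing (-0.50 ± 0.28, adjusted p = 0.439). Of 26 nuclear receptors and partners 0 passed (median -0.06). CAR (Nr1i3) and PXR (Nr1i2) were lower in every treated animal without passing, at -0.56 ± 0.21 and -0.30 ± 0.16 (adjusted p = 0.173 and 0.423), as was the factor Cebpb (-0.59 ± 0.27, adjusted p = 0.329). Closest to the threshold was Ahr, the aryl hydrocarbon receptor, at 219, 189 and 350 against 347, 508 and 934, with groups that overlapped (1.17 ± 0.32, adjusted p = 0.0503). Nfe2l2, the regulator of antioxidant genes, was at 0.65 ± 0.19 (adjusted p = 0.0678).

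Glutathione recycling and NADPH supply showed a few rises. Gsr, glutathione reductase, was the single call among 23 tested genes of glutathione synthesis and recycling (0.50 ± 0.13, adjusted p = 0.0426), and it passed in 1 reduced fit, the one without treated animal 56, reaching 0.236 without animal 58. Gclc, the rate-limiting synthase of glutathione, was at 0.24 ± 0.14 (adjusted p = 0.48). Among 10 NADPH suppliers 3 were higher and none lower. Me1, malic enzyme, read 1740, 3204 and 1883 in controls and 4358, 3931 and 5993 in treated animals, with control 18 close to the lowest treated animal (1.10 ± 0.23, 2.14-fold, adjusted p = 0.00628). Pgd and Tkt, of the pentose phosphate pathway, rose by 0.69 ± 0.16 and 0.44 ± 0.10 (adjusted p = 0.013 and 0.0105). Each of these calls was lost in some reduced fits: Me1 missed without control 16, control 20 or treated animal 60 (up to 0.0711), Pgd without control 20 or treated animal 60 (up to 0.127), and Tkt without control 16 or treated animal 58 or 60 (up to 0.103).

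**Figure D3:**
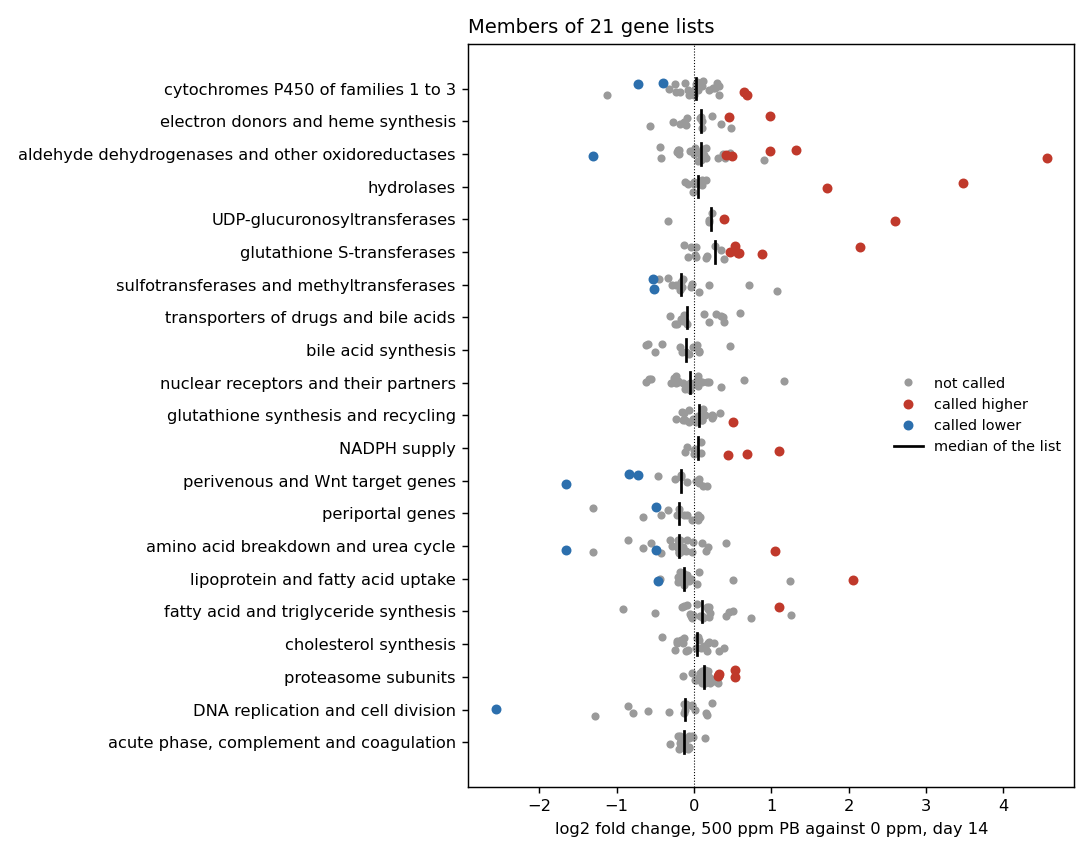
Log2 fold changes of 500 ppm PB over control on day 14 for the tested members of 21 gene lists, 1 point for each gene, grey where not called, red where called higher and blue where called lower, with a black bar at each list's median. Glutathione S-transferases have 6 of 17 members called higher at a median of 0.28. None of the tested transporters of drugs and bile acids or of the tested nuclear receptors is called.

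Genes of hepatocytes around the central vein, which Wnt signals sustain, included 3 of the lower calls, and 0 of 13 tested were higher (median -0.16). Glul, glutamine synthetase, read 7439, 5829 and 6142 in controls and 3550, 3544 and 3708 in treated animals, which were nearly equal (-0.84 ± 0.15, 1.79-fold lower, adjusted p = 0.00123). Both other probesets of Glul fell as well, by 0.96 ± 0.18 and 1.20 ± 0.16 on the log2 scale. Oat, the ornithine aminotransferase of the same cells, fell from 12631, 15791 and 17218 to 5885, 4142 and 4556 (-1.65 ± 0.27, 3.14-fold lower, adjusted p = 1.8e-04). The third was Cyp1a2, and all 3 calls stood in each of the 6 reduced fits. Other perivenous genes, such as Znrf3, a brake on Wnt signalling, did not pass (-0.47 ± 0.34, adjusted p = 0.59).

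Among 14 periportal genes tested, Gls2, the liver glutaminase, was the single call, lower at -0.50 ± 0.13 (adjusted p = 0.0363), and it missed without control 18 or 20 or treated animal 58 or 60 (up to 0.235). The median of this list was -0.19. Of 28 tested genes of amino acid breakdown and the urea cycle, Ddc was higher and Oat and Gls2 were lower, and 23 lay below 0 (median -0.19). Ddc, which makes dopamine and serotonin from their amino acids, rose from 4159, 4780 and 4756 to 8988, 10282 and 9075 (1.05 ± 0.09, 2.07-fold, adjusted p = 5.6e-11). Prodh, proline oxidase, had lower signals in every treated animal without passing (-0.86 ± 0.24, adjusted p = 0.0595). Sds, serine dehydratase, had overlapping groups because control 16 was low (1477, 4451 and 5397 against 1965, 1298 and 933). The gluconeogenic enzyme Pck1 overlapped too (-0.34 ± 0.17), and no tested gene of glycogen and glucose metabolism passed (0 of 20, median -0.04). Gys2, liver glycogen synthase, came nearest (-0.46 ± 0.13, adjusted p = 0.0539).

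Lipid genes gave isolated calls. Lpl, lipoprotein lipase, which frees fatty acids from circulating triglyceride and is low in adult liver, read 580, 286 and 271 in controls and 1392, 1507 and 1539 in treated animals. It rose 4.16-fold (2.06 ± 0.30, adjusted p = 4.0e-05), with control 16 standing above the other controls and below every treated animal. Scarb1, the receptor for high-density lipoprotein, fell by 0.46 ± 0.13 on the log2 scale (adjusted p = 0.0478), a call lost whichever array was left out (0.0642 to 0.229). In 22 tested genes of lipoprotein and fatty acid uptake these were the 2 calls. The regulator Angptl8 was higher in every treated animal without passing (1.25 ± 0.47, adjusted p = 0.185), and the scavenger receptor Cd36 overlapped (0.51 ± 0.35).

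Me1 was the single call among 24 genes of fatty acid and triglyceride synthesis (median 0.11). Pnpla3, a lipase that follows feeding and insulin, had the widest scatter, at 979, 3309 and 863 in controls and 6517, 1085 and 5449 in treated animals, and did not pass. Cyp4a8 was the single call among 20 genes of fatty acid oxidation (median -0.04), and Cpt1a, the gate of mitochondrial fatty acid entry, was at -0.64 ± 0.31 (adjusted p = 0.35). Cholesterol synthesis had 0 calls among 22 tested (median 0.04), with Msmo1 at 0.39 ± 0.21 and Insig1 at -0.41 ± 0.26. In phospholipid synthesis Ptdss2, a phosphatidylserine synthase, rose from 856, 874 and 928 to 1344, 1308 and 1277 (0.56 ± 0.11, adjusted p = 0.00192), 1 call of 19 tested. A pair of lipid enzymes outside these lists was called as well. Sgpl1, the lyase that breaks down sphingosine phosphate, rose by 1.18 ± 0.20 (adjusted p = 3.6e-04), and Hacl1, which shortens branched and hydroxylated fatty acids in peroxisomes, fell from 6678, 10938 and 15385 to 4511, 4536 and 3324 (-1.35 ± 0.34, adjusted p = 0.0321). Hacl1 was called only without control 16 among the reduced fits, with adjusted p up to 0.21.

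No tested gene of the list of DNA replication and cell division was called higher on day 14 against control. Of 16 tested among 32 listed, 0 were higher and 1 was lower (median -0.12). The other 16 were not tested. Ccna2, cyclin A2, was listed on 2 arrays of each group, at 341 and 66.4 in controls 18 and 20 and at 23.9 and 27.3 in treated animals 58 and 60. On those 4 arrays it fell by 2.56 ± 0.58 on the log2 scale (adjusted p = 0.0156), and it could not be tested without any of these 4 animals. Top2a, the topoisomerase of replicating cells, read 138, 338 and 148 against 112, 47.1 and 91.5 and did not pass (adjusted p = 0.114), nor did Ube2c (-0.78 ± 0.39) or Ccnd1, cyclin D1 (-0.60 ± 0.20). Control 18 had the highest signal of Ccna2, Top2a and Ube2c among the 6 animals. Of 18 p53 targets and cell death genes none passed (median -0.03), among them Cdkn1a, the arrest gene p21 (-0.54 ± 0.35), and Fas (0.62 ± 0.25).

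Subunits of the proteasome, which degrades tagged proteins, stood slightly higher. Of 33 proteasome subunits tested 4 were higher and none lower, 31 lay above 0, and the median was 0.14. Psmd9, an assembly factor of the regulatory particle, rose from 1468, 1545 and 1530 to 2067, 2053 and 2487 (0.53 ± 0.10, adjusted p = 0.00142) and was called in all 6 reduced fits. The core subunits Psma1, Psmb7 and Psma7 rose by 0.53 ± 0.13, 0.33 ± 0.08 and 0.31 ± 0.08 (adjusted p = 0.025, 0.0317 and 0.0456). Psma7 and Psma1 were each called in 2 reduced fits and Psmb7 in 3, with adjusted p up to 0.203, 0.112 and 0.171, each lost without control 20 and without treated animal 58, Psma1 also without control 16 or treated animal 60, Psma7 without control 18 or treated animal 60 and Psmb7 without control 18. Among 30 genes of the endoplasmic reticulum and its stress response, Reep6, which shapes its membranes, rose from 4361, 3946 and 4537 to 7665, 7954 and 9186 (0.95 ± 0.17, 1.93-fold, adjusted p = 9.1e-04). It was the single call of that list, where 22 members lay below 0 (median -0.10), with the stress factors Xbp1 at -0.55 ± 0.25 and Herpud1 at -0.53 ± 0.29. Hspa4, a partner of the heat shock protein Hsp70, rose by 0.75 ± 0.16 (adjusted p = 0.00594) and missed without control 18 (0.0601), the single call of 12 tested heat shock proteins.

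None of 28 tested genes of acute phase, complement and coagulation proteins passed, and 27 of them lay below 0 with a median of -0.13, which was -0.05 after quantile normalization. Serpina3n had the lowest value (-0.31 ± 0.11, adjusted p = 0.13). Thyroid and growth hormone genes had 0 calls of 15 (median -0.20). Igfbp1, a binding protein of insulin-like growth factors that falls with feeding, read 8476, 4912 and 5709 in controls and 2769, 1792 and 1970 in treated animals without passing (-1.53 ± 0.59, adjusted p = 0.192). Of 13 clock genes none passed, and Usp2, a rhythmic deubiquitinase, was the lowest at -1.02 ± 0.39 (adjusted p = 0.201). The hour at which each liver was taken was not analysed here.

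Markers of other liver cells were compared to show what the sample held. The summed signal of 12 Kupffer cell and macrophage markers was 26878 to 32597 in controls and 27615 to 29652 in treated animals, while their median log2 fold change was -0.30. Within that list Cd14, a receptor for bacterial lipopolysaccharide, was higher (3266, 2559 and 3895 against 4727, 5686 and 5143, 0.70 ± 0.16, adjusted p = 0.013), Cd163, the haemoglobin scavenger receptor, was lower (823, 721 and 943 against 448, 517 and 593, -0.68 ± 0.17, adjusted p = 0.0334), and 11 of 12 members lay below 0. Cd14 missed without control 18 or treated animal 58 (up to 0.121). Cd163 missed without control 16 or 20 or treated animal 56 or 58 (up to 0.183).

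The summed signal of 10 stellate cell and fibroblast markers was 12621 to 15238 in controls and 10162 to 11951 in treated animals. These sums did not overlap, as was so for 21.1% of the single probesets tested and listed on all 6 arrays. Of 11 markers tested 9 lay below 0 (median -0.32), and the highest value was 0.82. Dcn, the matrix proteoglycan decorin, was the single call (1584, 803 and 763 against 420, 548 and 654, -0.90 ± 0.24, adjusted p = 0.0472). It rested on the high control 16, without which the adjusted p was 0.293, it was also lost without treated animal 56, 58 or 60, and with the run as a block its value was -0.02. Mfap4, a microfibril protein outside that list, fell by 1.12 ± 0.29 on the log2 scale (adjusted p = 0.0358) and was called only without control 20 among the reduced fits (up to 0.203). The part of these cells in the lower calls was not tested. Endothelial markers had sums of 13479 to 14668 and 13251 to 15047 with 0 of 10 called, the 2 bile duct markers tested had 610 to 966 and 729 to 1041, and Krt7, Spp1 and Cldn4 were listed on none of the 6 arrays. The 3 summed lymphocyte markers had 1097 to 1296 in controls and 963 to 1064 in treated animals, with Cd3d, Cd3g, Cd8a and Cd79b listed on none.

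Several of the called genes with the highest fold changes lie outside drug metabolism. App, the amyloid precursor protein, rose on all 3 of its called probesets, in the brightest from 3566, 3381 and 2995 to 7458, 10380 and 7929 (1.36 ± 0.15, 2.57-fold, adjusted p = 5.7e-08), and by 1.72 ± 0.13 and 2.14 ± 0.25 on the others. Sema3c, a secreted guidance protein, rose from 155, 140 and 131 to 558, 300 and 329 (1.42 ± 0.22, adjusted p = 1.2e-04), with treated animal 56 well above the other 2. Pir, pirin, an iron-binding cofactor of transcription, rose from 421, 480 and 438 to 951, 971 and 929 (1.09 ± 0.14, adjusted p = 5.1e-06), and Casp4, an inflammatory caspase, by 1.16 ± 0.16 (adjusted p = 1.0e-05). Mid1, a ubiquitin ligase on microtubules, rose by 1.30 ± 0.26 (adjusted p = 0.00436), and its call, like those of App, Sema3c, Pir and Casp4, stood in all 6 reduced fits. Prss8, the serine protease prostasin, was listed on 2 controls (125 and 73.9) and read 395, 262 and 502 in treated animals (1.95 ± 0.28, 1.04 with the run as a block, adjusted p = 2.4e-04). It could not be tested without control 16 or 18. Mnd1, a meiotic recombination factor, rose by 1.18 ± 0.24 (adjusted p = 0.00505), and missed without control 16 or treated animal 60 (up to 0.0585).

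On the lower side Eif4ebp3, an inhibitor of translation initiation, fell from 2958, 3464 and 4172 to 1301, 875 and 1364 (-1.59 ± 0.23, 3.02-fold lower, adjusted p = 3.8e-05), called in all 6 reduced fits. Ly75, an endocytic receptor of antigen-presenting cells, fell from 1222, 1405 and 1123 to 389, 226 and 382 (-1.95 ± 0.49, adjusted p = 0.0314), -3.36 with the run as a block, and was called only without treated animal 56 among the reduced fits (up to 0.153). Several other lower calls depended on single arrays. Ptprm, a receptor phosphatase of cell contacts, fell by 0.96 ± 0.23 on the log2 scale, Dmxl2 by 0.97 ± 0.23, Pkdcc by 1.00 ± 0.27, Ddx6, a helicase of messenger decay, by 0.85 ± 0.23, Lilra5 by 0.83 ± 0.18 and Crip1 by 0.80 ± 0.20, with adjusted p from 0.0194 to 0.049. Each was lost without at least 3 of the 6 arrays, with adjusted p up to 0.254. Ptprm was lost without control 16 or 18 or treated animal 56, Dmxl2 without control 16 or 18 or treated animal 58, Crip1 without any but control 18 and treated animal 56, Ddx6 without any but treated animal 56, and Pkdcc without any of the 6. Lilra5 was listed on 2 arrays of each group, could not be tested without any of those 4 and missed when either of the others was left out (0.0521 and 0.0616).

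Some messages were listed in 1 group only and so could not be tested. In all, 50 of 31042 probesets were listed on all 3 treated arrays and on no control, and 83 on all 3 controls and on no treated array, with lowest signals whose medians were 90.5 and 95.9. By comparison, 12818 were listed on all 6 arrays and 11965 in neither group. Besides Gstm3 and Gsta3, Gadd45b, a stress-induced gene of the growth arrest family and a known early target of CAR in mouse, read 370, 482 and 627 in treated animals, and Gpx2, a glutathione peroxidase, 176, 161 and 295. These 4 were also listed on all 3 arrays of 1000 ppm on day 14. In the controls alone, Mt2A, a metallothionein that binds zinc, read 867, 677 and 847, the aromatic amino acid carrier Slc16a10 461, 474 and 577, and a second probeset of Usp2 134, 183 and 168. None of these 3 was listed on any array of 1000 ppm on day 14, all of which lay in run 1, whose arrays list fewer signals. Absent signals were common for all these probesets. Of the 48 arrays, Mt2A and this probeset of Usp2 were listed on 15 each and Slc16a10 on 24. Gstm3 was listed on 21, Gsta3 on 34, Gadd45b on 24 and Gpx2 on 23. These genes were chosen after their values were seen, and the meaning of an absent signal is unknown.

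The time course of the 500 ppm response was tested as the difference between the day 14 response and each earlier one, which have their own controls. Of the 254 probesets, 197 of 247 tested had the same sign on day 1, and 41 were called in the same direction. On day 3 the sign was shared by 191 of 249 and the call by 67, and for day 7 these counts were 224 of 248 and 89. On all 4 days 26 were called, and 141 were called on day 14 only. Over all probesets 140 were called on day 1 (1.01%), 203 (1.39%) on the third and 519 (3.91%) on the seventh day. Of the day 7 treated arrays 2 lay in run 1, whose arrays list fewer and brighter signals, and quantile normalization changed the day 7 split from 297 higher (2.23%) and 222 lower (1.67%) to 125 higher and 1731 lower.

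A total of 8 probesets (0.0596%) had a day 14 response that differed from that of day 1, all higher on day 14. After quantile normalization 7 were called, 5 higher and 2 lower. Controls 3 and 5 of day 1 lay in run 1, whose arrays list fewer and brighter signals. Aldh1a1 rose by 1.36, 2.55, 3.39 and 4.57 on days 1, 3, 7 and 14, so that its day 14 response exceeded that of day 1 by 3.21 ± 0.48 (adjusted p = 2.5e-04). Ces2c followed the same order, at 1.27, 2.65, 3.16 and 3.48 (difference from day 1 2.21 ± 0.29, adjusted p = 2.2e-05). App started at -0.06 on day 1 and passed 0.52 and 0.85 to 1.36 (difference 1.42 ± 0.20, adjusted p = 1.4e-04), and Ddc went from 0.41 to 1.05 (0.64 ± 0.12, adjusted p = 0.0131). Igfbp4, a binding protein of insulin-like growth factors, was below controls on day 1 (-0.99) and did not pass on day 14 (0.20 ± 0.11, difference 1.20 ± 0.15, adjusted p = 2.2e-05). Pigo, an enzyme of membrane anchor synthesis, differed by 0.80 ± 0.16 (adjusted p = 0.0195).

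For other inducible genes the difference from day 1 did not pass. The shared probeset of Cyp2b2 and Cyp2b1 stood 2.80 above controls on day 1 and 3.07 on day 14, a difference of 0.28 ± 0.20 (adjusted p = 0.691). Ugt2b1 went from 1.92 to 2.60 and Ephx1 from 1.06 to 1.73, without passing (adjusted p = 0.272 and 0.0581). Gstt3 and Lpl were near controls on day 1 (0.06 and -0.05) and reached 1.94 and 2.25 by day 7, and their differences of 2.09 and 2.11 between days 14 and 1 missed the threshold (adjusted p = 0.0581 for each). Oat showed -0.05, -0.93, -1.35 and -1.65 over the same days (adjusted p = 0.0703 for the last against the first), whereas Glul stood at -0.69 already on day 1. Alas1 had its highest value on day 1 (1.27 against 0.48 on day 14), a difference that was not significant (adjusted p = 0.583).

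**Figure D4:**
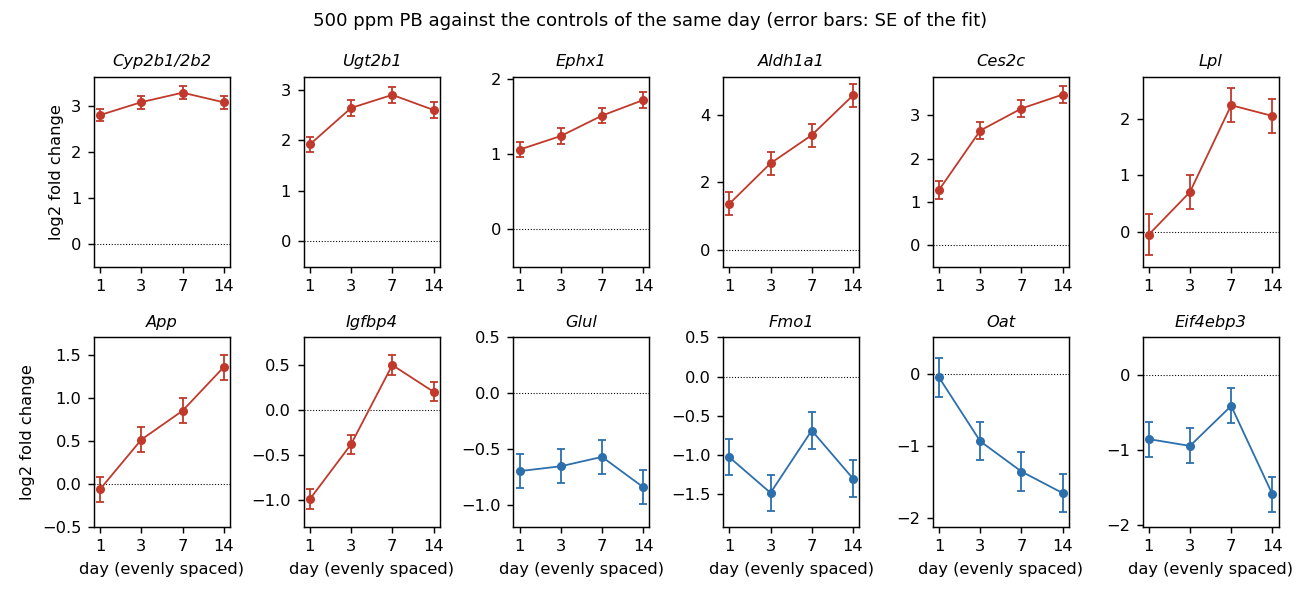
Log2 fold changes of 500 ppm PB over the controls of the same day for 12 genes on days 1, 3, 7 and 14 (evenly spaced), with standard errors of the fit as error bars and a dotted line at 0. Aldh1a1 goes from 1.36 to 4.57 and Igfbp4 from -0.99 to 0.20, while the Cyp2b2 and Cyp2b1 probeset stays between 2.80 and 3.28.

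Against day 3, 18 probesets (0.130%) responded differently on day 14, 3 higher (0.0217%) and 15 lower (0.108%), and with the arrays placed by their labels 0 did. Hspa4 was below controls on day 3 (-0.87) and above them on day 14, a difference of 1.61 ± 0.22 (adjusted p = 1.9e-04). Among the lower differences were Ccna2 at -4.11 ± 0.75, Tubb5, a tubulin, at -1.04 ± 0.21 and Tpm3, a tropomyosin, at -0.69 ± 0.14 (adjusted p = 0.0203, 0.0315 and 0.0315). Tubb5 was above controls on day 3 (0.73) and at -0.31 on day 14. The 3 treated arrays of day 3 lay in runs 5 and 6 and those of its controls in runs 2 and 3, the reverse of day 14. With the run as a block 1 probeset was called, which was not among the 18, so that Hspa4, Ccna2, Tubb5 and Tpm3 all lost their calls. Against day 7, limma called 0 of 12963 (0.00%), with 1326 at an unadjusted p below 0.05.

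Between doses on day 14, 68 probesets (0.481%) differed between 500 and 50 ppm, 51 higher (0.360%) and 17 lower (0.120%) at 500 ppm. Lpl was 2.30 ± 0.30 higher at 500 than at 50 ppm (adjusted p = 1.5e-05), Aldh1a1 2.52 ± 0.34, Ces2c 2.33 ± 0.20, Gstt3 1.60 ± 0.32, Sema3c 1.47 ± 0.22, App 1.09 ± 0.15 and Pir 1.02 ± 0.14. The lower genes included Oat at -1.42 ± 0.27, Fmo1 at -1.40 ± 0.23, Eif4ebp3 at -1.20 ± 0.23 and Glul at -0.79 ± 0.15, with Nampt (-1.47), Trim2 (-0.97), Eif1a (-0.84), Zfp612 (-0.77) and Cyp1a2 (-0.68) among the others. Values against the day 14 controls, which all 3 doses share, stood side by side as follows. Aldh1a1 was at 2.04, 4.57 and 4.85 at 50, 500 and 1000 ppm, and Lpl at -0.25, 2.06 and 2.60. Fmo1 was at 0.10, -1.30 and -1.66, Glul at -0.04, -0.84 and -0.98, and Oat at -0.24, -1.65 and -2.03.

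The Cyp2b, Ugt2b1 and Ephx1 messages were called at 50 ppm as well. The Cyp2b2 and Cyp2b1 probeset was at 2.70, 3.07 and 3.36 at the 3 doses, and the difference between 500 and 50 ppm was 0.38 ± 0.14 (adjusted p = 0.292), which does not show that the doses acted alike. Ugt2b1 was at 1.93, 2.60 and 2.79, and Ephx1 at 0.85, 1.73 and 1.97, and for these genes 500 ppm stood above 50 ppm, by 0.67 ± 0.15 and 0.87 ± 0.11 (adjusted p = 0.0256 and 4.0e-06). Between 1000 and 500 ppm limma called 0 of 13481 probesets (0.00%), with 1401 at an unadjusted p below 0.05. That count depended on scaling: the 3 arrays of 1000 ppm all lay in run 1, and after quantile normalization 42 probesets were called, all lower at 1000 ppm, while the median of all tested stood at -0.15. Over all probesets 511 (3.78%) were called at 1000 ppm and 16 (0.112%) at 50 ppm against the shared controls.

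**Figure D5:**
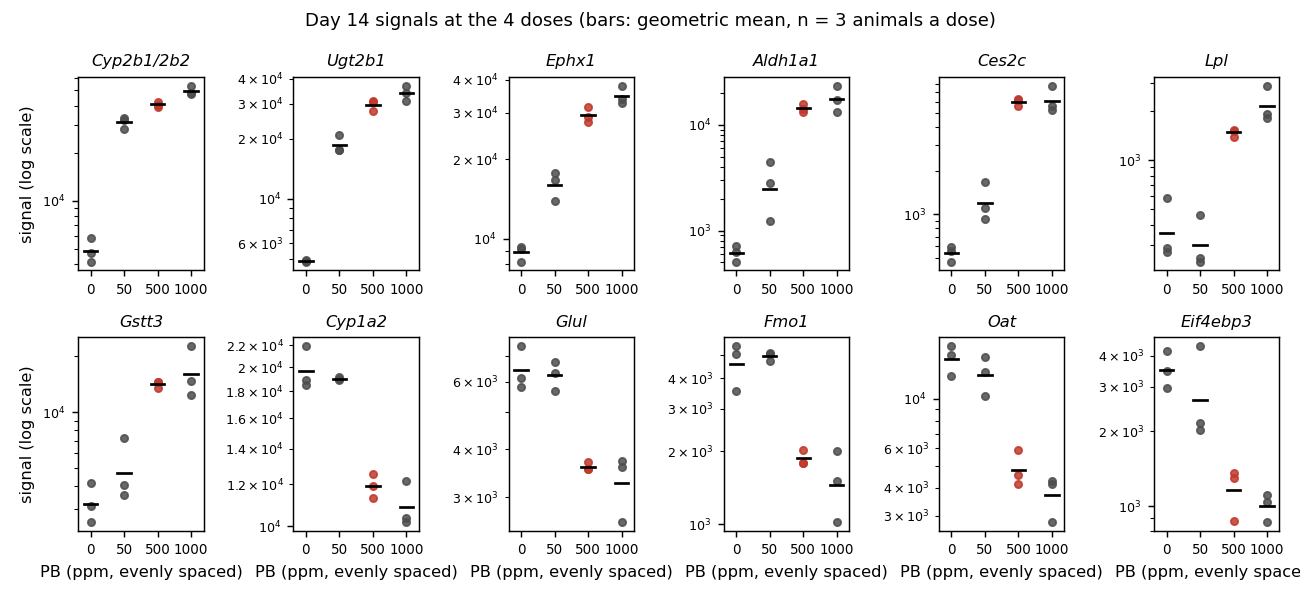
MAS 5.0 signals on log axes for 12 genes on day 14 at 0, 50, 500 and 1000 ppm PB (evenly spaced), 1 point for each of 3 animals, with bars at the geometric mean and the 500 ppm animals in red. The Cyp2b2 and Cyp2b1 probeset is already raised at 50 ppm (28350 to 33497), while Lpl, Oat, Glul and Fmo1 separate from control at 500 and 1000 ppm.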

How the data were processed

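Liver RNA was measured on 48 arrays, of which the 6 of 0 and 500 ppm on day 14 are compared here. The authors condensed the probe intensity values of each Affymetrix array with MAS 5.0, scaled each array to a mean of 500 and set signals below 0.01 to that floor. The authors also deposited ratio values of 776 probesets, each signal over its own median across the arrays (100% of values within a relative 0.01 when checked), which were not used for tests. Absent signals were left missing. Present flags were not used here, and the tables used held no columns of the authors' comparisons.

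After 57 control probesets were left out, 18073 of 31042 reached a signal of 90 on 3 or more arrays, and tests needed 2 or more listed signals in both groups compared. Log2 signals were fitted in limma 3.58.1 (R 4.3.3) with group means, moderated variance and Benjamini-Hochberg adjustment at 0.05, and the fit was tested on simulated data. A gene was read from its brightest probeset among those annotated to it alone; 20826 probesets carried 1 symbol, 436 several and 9780 none. Named genes were the 15 highest and 15 lowest called genes, called members of the gene lists with the 4 most changed of the others (absolute log2 change of at least 0.3), genes in the study's table of selected genes, and the 8 highest and 8 lowest of each further contrast. The members and lists were chosen with earlier results of these data known. Arrays were placed by animal number. For 7 arrays, none of the 6, the labels give another group. Alternatives were quantile and median scaling, no filter, other sets of arrays, the run or replicate as a block, trended variance and leaving out each array. Promoters came from RefSeq (GRCr8).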

Additional observations from a re-analysis of the deposited data

Results flagged for a closer look

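The response to 500 ppm PB was compared between day 14 and the earlier days, each against its own controls, with limma's interaction of dose and day. Against day 1 the day 14 response was higher for Aldh1a1 by 3.21, Ces2c by 2.21, App by 1.42, Igfbp4 by 1.20, Pigo by 0.80 and Ddc by 0.64 (log2). Igfbp4 was called below controls on day 1 and was not called on day 14, where its value was -0.11 with the array run as a block. Pigo was not called on day 1 and was called above controls on day 14.

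Against day 3 the day 14 response was higher for Hspa4, by 1.61, and Gm2a, a lipid-transfer protein of lysosomes, by 0.55 (log2). It was lower for Ccna2 (-4.11), Spag9 (-1.80), Ankrd13c (-1.30), Tubb5 (-1.04), Dst (-0.97), Hacd3 (-0.85), Pcbp2 (-0.72) and Tpm3 (-0.69). The Ccna2 value rests on 2 listed signals a group on day 14. Treated and control arrays lay in opposite runs on these days (runs 5 and 6 against 2 and 3 on day 3, the reverse on day 14), and the part of the run was not tested beyond the block, with which none of these genes was called and 1 other probeset was.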

How the results depend on the processing

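The 254 calls of 500 ppm against control on day 14 became 170 after quantile normalization (90 higher, 80 lower), 162 with arrays divided by their median, 74 with the 6 arrays fitted alone, 73 with the 12 arrays of day 14, 13 with the run as a fixed block, 130 with the 7 arrays placed by their labels, 318 with a trended variance and 144 with a minimum of 1.5-fold. With the run as a random block 285 were called, all 254 among them, and without the 7 arrays 263 were. Leaving out 1 array gave 108 (without control animal 20) to 192. The counts were 158 without control animal 18, 145 without treated animal 58 and 117 without animal 60. With a replicate block 224 were called, and deviations of same-numbered animals correlated at 0.0342, -0.121 and -0.0065, so the numbers name animals and do not pair them.

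The 8 differences from day 1 became 4 with the run as a fixed block, 4 with the labels' placing and 28 with trended variance, and were 5 higher and 2 lower after quantile and 5 and 3 after median scaling. In place of the 18 differences from day 3, 1 that was not among them was called with the run as a fixed block, and the count was 38 with it as a random block, 0 with the labels' placing (1254 at an unadjusted p below 0.05 in limma) and 40 with trended variance, and 1 higher and 23 lower after quantile normalization. The 0 calls against day 7 became 10 with median scaling, 2 with the run as a fixed block and 2 without the 7 arrays. For 1000 against 500 ppm the 0 calls became 42 after quantile normalization (all lower), 419 with median scaling (4 higher, 415 lower) and 1 with the run block, while those scalings moved the median of all probesets to -0.145 and -0.170. The 68 calls of 500 against 50 ppm became 29 with the run block, 31 with the labels' placing and 30 without the 7 arrays. The cause of these changes was not tested.

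Of 66 named genes called, 51 were called after quantile normalization, 23 with the 6 arrays alone and 7 with the run as a fixed block, and none reversed. Genes not called that changed sign with the run as a fixed block were Igfbp4 (-0.11), Adh4 (-0.38), Nr0b2 (0.75), Cyp7a1 (0.66), Pck1 (0.18), Pdk4 (-0.012), Insig1 (0.30), Inpp4b (0.064, and -0.59 to 0.014 when 1 array was left out), Fas (-0.047), Rgs5 (-0.072) and Krt19 (0.29), on the log2 scale. Dim probesets that are absent on some arrays limit what could be tested.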

Other observations

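Further genes outside the gene lists were called on day 14 in every fit that left out 1 of the 6 arrays, and they were picked after their values were seen. Cndp2, a cytosolic dipeptidase, read 1988, 1919 and 1617 in controls and 3669, 4212 and 4099 at 500 ppm (log2 fold change 1.12 ± 0.12, adjusted p = 2.9e-08 in limma). Acad9, a mitochondrial acyl-CoA dehydrogenase, rose from 1535, 1601 and 1336 to 2513, 2725 and 2686 (0.83 ± 0.09, adjusted p = 6.8e-08). In both genes the treated animals stood apart from the controls by more than the spread within either group. Stbd1, which tethers glycogen to membranes, rose by 0.88 ± 0.14, Slc3a2, the heavy chain of amino acid exchangers, by 0.88 ± 0.15, and Mmgt1, a membrane magnesium transporter, by 1.20 ± 0.11 on its more changed probeset.

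Signalling and nuclear genes were among them as well. Zdhhc2, a palmitoyl transferase, rose by 1.16 ± 0.16 and Meox2, a homeobox factor, by 1.14 ± 0.22. Parp1, which marks broken DNA, rose from 1466, 1293 and 1371 to 1979, 2211 and 2108 (0.61 ± 0.09, adjusted p = 8.2e-05), and the chemokine Cxcl12 from 6681, 6237 and 6740 to 9328, 10624 and 9786 (0.60 ± 0.10, adjusted p = 3.9e-04). Lower messages in all 6 of these fits included Fgl2, a fibrinogen-like protein of macrophages and endothelium, at -1.01 ± 0.21, Eif3a, a subunit of an initiation factor (427, 419 and 399 against 191, 217 and 213), Mtpn, myotrophin, at -0.76 ± 0.16, and Slc28a2, a nucleoside carrier, at -0.55 ± 0.11. None of the genes in these paragraphs but Mmgt1 was called with the array run as a fixed block.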
